A study of Drosophila melanogaster with 3 samples.

Results

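Intergenic peaks of the fly protein Deadpan were defined here as thresholded peaks whose summit lay outside every annotated transcript and over 500 bp from every annotated start site. There were 815 of them among 6253 thresholded peaks, or 13.0% (95% exact binomial interval 12.2 to 13.9, counting error only). The other summits were 3250 within 500 bp of a start site and 2188 inside a transcript and farther from a start. The rule used position alone, so peak strength, replicate support, sequence and neighbouring genes were free to vary. At the edge of the rule, 51 members had summits 501 to 600 bp from a start, with a median signal of 210.0, and 44 summits outside transcripts lay 401 to 500 bp from one, with a median signal of 220.0.

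The material was chromatin immunoprecipitation of Drosophila melanogaster embryos of a transgenic line, dpn-GFP, that stably expressed dpn with a GFP tag at the C-terminal end, precipitated with an anti-GFP antibody. Whole embryos of pooled males and females, aged 0 to 16 h, gave 3 biological replicates of 1 group. No untagged or untreated group was compared, and the sources used here do not give the promoter of the transgene or say whether the line kept its own dpn. Cells of all types were mixed, so a peak present in few cells and a weak peak present in many cannot be told apart. The replicate lists held 30000, 22475 and 30000 peaks, background included, and read depth was not given in the sources used here.

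Deadpan represses transcription and belongs to the Hairy/Enhancer-of-split branch of the basic helix-loop-helix proteins. Proteins of that branch bind E-box sites of the forms CACGTG and CACGCG and recruit the corepressor Groucho, and Deadpan is known for keeping neural stem cells, the neuroblasts, in a self-renewing state. Sequence between genes in the fly holds enhancers, silencers, Polycomb response elements and insulators, and long stretches of it often surround genes that pattern the embryo.

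The strongest intergenic summits are shown first, because they carry the highest signal of the class and differ in base composition. The windows span 50 bp on either side of the summit on dm6, plus strand, and belong to the members ranked 2, 4, 5, 6 and 7 by signal. Each is named by the gene with the nearest protein-coding start site. Capitals mark the 6 six-base words that later had the smallest adjusted p at summits, which in these windows occurred 2 times, both beside chinmo.
tara chr3R:16222431-16222531: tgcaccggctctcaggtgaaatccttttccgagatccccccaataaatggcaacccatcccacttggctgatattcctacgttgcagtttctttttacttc
chinmo chr2L:1638758-1638858: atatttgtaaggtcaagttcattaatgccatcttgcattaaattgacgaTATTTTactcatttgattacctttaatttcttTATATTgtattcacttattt
CG31668 chr2L:2202367-2202467: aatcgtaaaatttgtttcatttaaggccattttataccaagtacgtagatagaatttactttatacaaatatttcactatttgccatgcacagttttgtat
CG3149 chrX:5696485-5696585: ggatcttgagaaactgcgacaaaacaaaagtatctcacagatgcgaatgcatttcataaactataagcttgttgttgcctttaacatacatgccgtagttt
sp3 chr3R:21520328-21520428: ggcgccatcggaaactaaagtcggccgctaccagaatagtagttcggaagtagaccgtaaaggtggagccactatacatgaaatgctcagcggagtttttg
GC content was 47.5% in the tara window, 23.8% in the chinmo window, 26.7% for CG31668, 36.6% for CG3149 and 49.5% for sp3. The strongest windows therefore ranged from AT-rich to nearly balanced. None of these 5 held CACGTG or CACGCG.

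Windows with an E-box form are shown because these are the sites that Deadpan's relatives are known to bind. They are the 2 members with CACGTG and the strongest member with CACGCG, with the word in capitals.
Sfp79B chr3L:22078205-22078305: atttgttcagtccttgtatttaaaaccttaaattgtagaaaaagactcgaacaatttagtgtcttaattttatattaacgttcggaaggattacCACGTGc
tsh chr2L:21846516-21846616: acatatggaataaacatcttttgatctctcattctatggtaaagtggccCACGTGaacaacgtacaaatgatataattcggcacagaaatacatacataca
CG10651 chr2L:20121014-20121114: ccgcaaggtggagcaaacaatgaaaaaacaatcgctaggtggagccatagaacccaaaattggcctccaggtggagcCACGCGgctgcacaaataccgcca
The word near tsh, a zinc finger gene of trunk patterning, began 1 bp to the left of the summit, and the word near Sfp79B began 44 bp to its right. Their signals were 233.6 and 238.7, while the CG10651 window, whose CACGCG began 27 bp to the right of the summit, had a signal of 806.4. All 3 peaks were found in all 3 replicates.

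Another set of windows holds the 9-base word GCGCCNNCT, read on either strand and shown in capitals on whichever strand it occurred. The word was looked for only after summit sequences had been read, so its counts are a description without a test. Its most frequent forms here, GCGCCATCT and GCGCCACCT, match the core of the motif known for the insulator protein CTCF in Drosophila. Of the 7 members with 2 or more occurrences, the one with the most and the next 2 by signal are printed.
soti chr3R:14391356-14391456: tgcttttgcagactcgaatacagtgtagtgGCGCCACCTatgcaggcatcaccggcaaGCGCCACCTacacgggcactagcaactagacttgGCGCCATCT
Sid chr3R:28672351-28672451: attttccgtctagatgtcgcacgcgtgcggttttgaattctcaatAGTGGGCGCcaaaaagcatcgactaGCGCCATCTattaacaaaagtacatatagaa
Jhbp1 chr3R:4970783-4970883: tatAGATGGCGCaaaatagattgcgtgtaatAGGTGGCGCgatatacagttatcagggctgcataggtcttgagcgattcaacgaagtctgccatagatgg
The soti window held 3 occurrences, and the windows at Sid and Jhbp1 held 2 each. These 3 peaks, with signals of 381.8, 570.2 and 318.3, were found in all 3 replicates. Of all 38 members with the word, 17 (44.7%) were, beside 61.1% of the 815, and the other 4 with 2 occurrences were found in 1 or 2.

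Over all members, GCGCCNNCT stood in 38 of 815 summit windows, or 4.66% (95% exact binomial interval 3.32 to 6.34), and in 16 of 1630 windows centred 500 bp to the left or right, or 0.982%. It stood in 2.28% of summit windows within 500 bp of a start, in 1.69% of those inside transcripts and in 2.38% of all 6253. In the replicates' own intergenic summits the share was 2.37%, 3.80% and 5.36%, a mean of 3.85% ± 1.49 (SD, n = 3), beside 0.831% ± 0.208 in flanks. The same replicates gave 1.91% ± 0.155 at promoters and 1.86% ± 0.104 in transcripts. Replicate 1 was the lowest at intergenic summits and still above its promoter value of 1.73%. The 46 occurrences comprised 17 of GCGCCATCT, 16 of GCGCCACCT, 8 of GCGCCCTCT and 5 of other forms, and 32 of them were centred within 25 bp of the summit. From the strongest to the weakest quintile of the members, 7, 13, 6, 8 and 4 of 163 windows held it. Genes nearest to these peaks, named after their values were seen, included Sox21a, a SoxB transcription factor gene, CadN, which encodes a neural cadherin, and wgn, which encodes a receptor of the tumour necrosis factor family. A match is a run of letters, and occupancy by CTCF was not measured here.

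The summits of intergenic peaks dipped in GC content. In windows of 101 bp, mean GC was 33.9% at the summit and 42.2% and 42.0% in the windows 500 bp to the left and right. Member by member it ranged from 14.9% to 69.3% with a median of 32.7%, and 495 members (60.7%) were lower at the summit than in both flanks. Over each replicate's own intergenic summits the difference from the flanks was -6.02, -8.46 and -8.08 percentage points, a mean of -7.52 ± 1.31 (SD, n = 3). The direction was the same in 3 of 3 replicates, and the two-sided exact sign-flip test gave p = 0.25, the smallest that 3 replicates allow, so this design cannot pass 0.05.

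**Figure D1:**
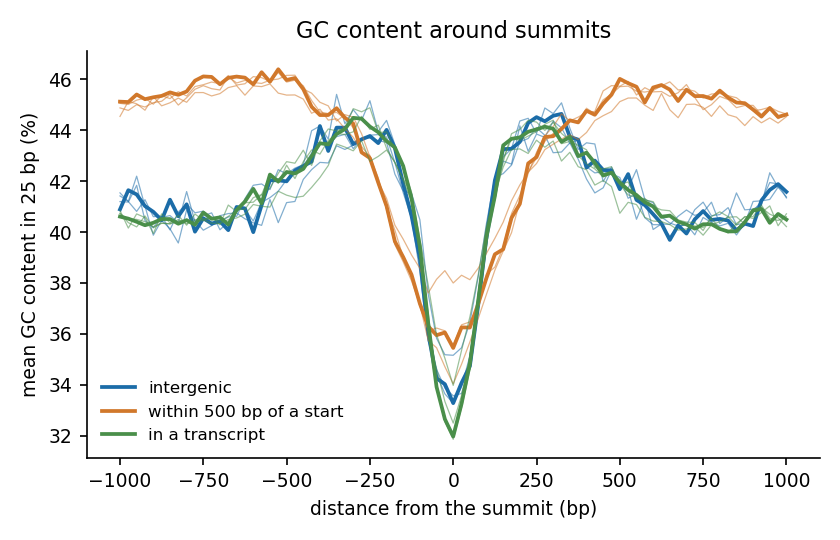
Mean GC content in steps of 25 bp (vertical axis, %) against distance from the summit (horizontal axis, bp) for intergenic summits, summits within 500 bp of a start and summits in transcripts; thick lines are the thresholded list and thin lines the 3 replicates. The intergenic line falls to 33.3% at the summit and reaches 44.6% at 325 bp.

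The dip was shared with the other classes. Intergenic summits were 2.00 ± 0.949 percentage points lower in GC than promoter summits (34.3% against 36.3%, 3 of 3 replicates) and 0.537 ± 0.465 higher than summits in transcripts (34.3% against 33.8%, 3 of 3 replicates). Both sign-flip tests gave the smallest possible exact p of 0.25. The difference from transcripts changed sign to -0.684 when each replicate list was read down to 12506 peaks, and that from promoters shrank to -0.314 at 3126 peaks. In the flanks the difference from promoters was -3.76 ± 0.0924 points (41.9% against 45.6%).

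All 2080 six-base words, each counted with its reverse complement, were compared between summit and flank windows by a two-sided exact McNemar test with Benjamini-Hochberg adjustment over the words. Of these, 211 words (10.1%) were more frequent at intergenic summits and 288 (13.8%) less frequent at an adjusted p under 0.05. Words of A and T prevailed among the first: 202 of 211 had at most 2 bases of G or C, and 34 had none. Among the second, 244 of 288 had at least 4. The part of base composition in the call of each single word was not tested.

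ATATTA stood in 19.9% of summit windows and 7.61% of flanks (exact McNemar adjusted p = 3.1e-09), and AATATA in 23.3% and 10.3% (exact McNemar adjusted p = 4.6e-09). TTTAAA stood in 19.1% and 7.98%, AAAATA in 32.1% and 17.9%, and TTAAAA in 31.0% and 17.5%. ATACTA had the highest ratio of these 6, with 78 of 815 summit windows against 18 flanks (9.57% and 2.21%, exact McNemar adjusted p = 9.4e-08). At least 1 of the 6 words stood in 68.7% of intergenic summit windows, in 38.5% of their flanks and in 66.8% of all 6253 summit windows. The 6 were picked by their counts in these same windows and flanks, so that gap is no further result. The words were also common in the other classes, and ATACTA stood in 7.14% of promoter and 6.86% of transcript windows.

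The words that were depleted most clearly were rich in G and C. GCAGCA stood in 30 summit windows against 83 flanks, GGGGAA in 16 against 61, AGCCGA in 9 against 45, CGACGA in 3 against 32, CCAGCC in 6 against 39 and CAGCCA in 26 against 72. Their adjusted p-values by the McNemar test ran from 2.1e-05 to 4.3e-05. CAGCCA lost its call among the members found in both other replicates when replicate 2 or replicate 3 was left out (exact McNemar adjusted p = 0.051 and 0.073). CGACGA and, of the enriched words, ATATTA lost theirs among the 333 members of the stronger part of the thresholded list (exact McNemar adjusted p = 0.18 and 0.059).

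Against this trend, 9 enriched words held 3 or more G or C bases. ACACTG stood in 70 summit windows against 24 flanks (exact McNemar adjusted p = 5.6e-05), ACAGTG in 59 against 24 (0.0019), CACCTA in 41 against 15 (0.0064) and CAGTGC in 68 against 36 (0.0093). By the same test CTACAC passed with 45 against 19, GCATAC with 49 against 22, CTAGTC with 19 against 4 and CCTTAG with 23 against 8. GGCGCC, with 6 such bases, stood in 27 summit windows against 10 flanks (exact McNemar adjusted p = 0.037), and it overlaps GCGCCNNCT where a G precedes that word. CACCTA was present at 5.03% of intergenic summits, 2.86% of promoter summits and 2.74% of transcript summits. ACACTG was present at 8.59%, 9.78% and 6.99% of the same classes, and ACAGTG at 7.24%, 8.12% and 8.04%. The other words of the 9 were, like CACCTA, higher at intergenic summits than in both other classes. These comparisons were not tested.

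Of 19 words chosen from known motifs, 0 (0%) were more frequent at intergenic summits and 2 (10.5%) less frequent at an adjusted p under 0.05 over the 19. CACGTG, the palindromic E-box, stood in 2 summit windows against 14 flanks, and CACGNG, which includes CACGTG and CACGCG, in 27 against 52 (exact McNemar adjusted p = 0.044 for both). Both calls were lost when the left and right flanks were swapped and when replicate 2 or replicate 3 was left out, and only CACGNG was still called without replicate 1 (exact McNemar adjusted p = 0.042). Lower values at summits were shared with the other classes, which were not tested. CACGNG stood in 5.26% of promoter windows against 10.3% of both flanks, and in 3.38% against 7.34% in transcripts. CACGTG stood in 1.05% against 1.51% and in 0.640% against 1.28%. CACGCG stood in 7 summit windows and 15 flanks (exact McNemar adjusted p = 0.32), and the N-box CACNAG in 71 and 87 (exact McNemar adjusted p = 0.43). In all, 9 members (1.10%, 95% exact interval 0.506 to 2.09) held CACGTG or CACGCG within 50 bp of the summit. Their median rank in the thresholded list was 2646, beside 3640 for all members.

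The E-boxes known for proneural, Snail and Twist proteins did not pass: CAGCTG stood in 18 summit windows against 26 flanks, CAGGTG in 23 against 26, CATATG in 35 against 37 and CAGATG in 26 against 40. The homeodomain core TAATTA stood in 82 summit windows against 58 flanks (exact McNemar adjusted p = 0.16), and TAGCTA in 23 against 9 (exact McNemar adjusted p = 0.095). These 2 were the only higher words with an unadjusted p under 0.05. GAGAG, the word of GAGA factor, stood in 75 against 107 (exact McNemar adjusted p = 0.093). The Zelda word CAGGTAG, the Suppressor of Hairless word CGTGGGAA and the Grainy head word AACCGGTT occurred in 4, 2 and 0 members, and a count of 0 in 815 windows allows a share of up to 0.368% by the limit of 3 counts and 0.452% by the 95% exact interval. GCCAT, found in the Polycomb-recruiting factor Pleiohomeotic's motif, stood in 136 summit windows and 155 flanks, and ACACACAC in 8 and 16.

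Intergenic peaks carried core promoter words less often than promoter peaks in the values of each replicate. TATCGATA, the DNA replication-related element, stood in 0.394% of the replicates' intergenic summit windows and 4.42% of promoter windows, and the difference was -4.96, -2.85 and -4.27 percentage points in the 3 replicates. CGATA, the short form contained in it, stood in 11.7% against 24.5%, a difference of -12.8 ± 2.13 (SD, n = 3). GGTCACAC, known as core promoter motif 1, stood in 0.25% against 2.35%. The direction was the same in 3 of 3 replicates for each, with the smallest possible exact sign-flip p of 0.25. Against their own flanks, intergenic summits did not pass for any of them, with TATCGATA in 4 windows and 3 flanks. Scarcity of these words was not particular to intergenic peaks. Transcript summits of the replicates held TATCGATA in 0.165%, CGATA in 10.3% and GGTCACAC in 0.193% of windows.

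Intergenic peaks had lower signal than promoter peaks. Signal, an authors' score without a stated scale, ranged from 122.6 to 2733.2 with a median of 189.0, beside 226.0 for promoter and 199.5 for transcript summits. In the replicates, the median rank of intergenic summits was 591, 1069 and 702 places lower in the list than that of promoter summits, a mean of 787 ± 250 (SD, n = 3). Against transcript summits it was 180.5, 229 and 308.5 places lower, a mean of 239 ± 64.6. Each had the smallest possible exact sign-flip p of 0.25, with 3 of 3 replicates in one direction.

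The intergenic share of peaks was higher among weaker peaks in each replicate. It was 8.53% ± 0.482 (SD, n = 3) in the strongest quintile of the replicates' first 6253 peaks, then 11.6% ± 1.52, 13.2% ± 0.816, 14.7% ± 2.83 and 15.5% ± 1.5. The last quintile exceeded the first by 5.12, 9.03 and 6.71 percentage points (mean 6.95 ± 1.97, exact sign-flip p = 0.25, the smallest possible). The pooled list beyond the threshold held 4686 intergenic summits among 23747, or 19.7%. Of the 100 strongest peaks 4 were intergenic, and of the 500 strongest 36. Sequence eligible for the class makes up 27.1% of the 134 Mb of the 6 arms.

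**Figure D2:**
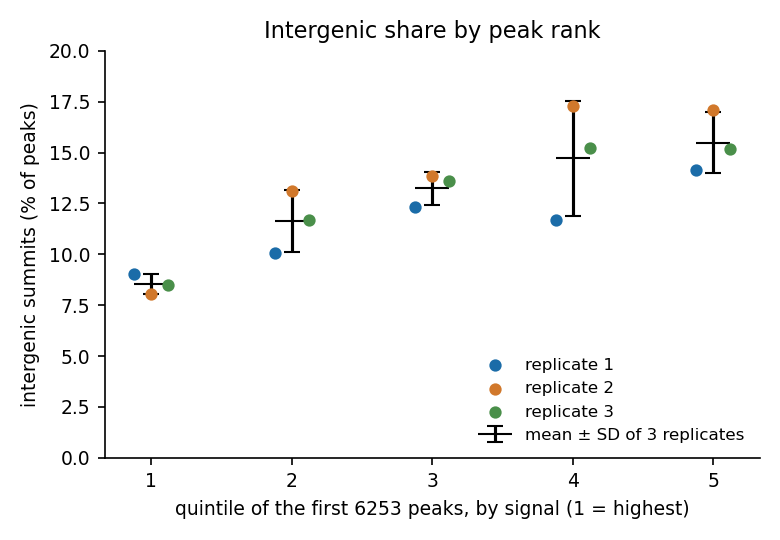
Intergenic summits as a percentage of peaks (vertical axis) in each quintile of the first 6253 peaks ordered by signal (horizontal axis); coloured points are the 3 replicates and black bars the mean ± SD. The mean goes from 8.53% in the strongest quintile to 15.5% in the weakest.

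Replicate support followed signal. The thresholded list was called on these same replicates pooled, so support in them is no independent test. Of the 815 members, 498 (61.1%, 95% exact interval 57.7 to 64.5) overlapped, by at least 1 bp, a peak among the first 6253 of all 3 replicates. A further 230 did so in 2 replicates, 81 in 1 and 6 in none. From the strongest to the weakest quintile of the thresholded list, 100% (103 of 103), 94.3%, 83.1%, 48.7% and 7.81% of the intergenic peaks had support in all 3. Replicate 1 supported 594 members, replicate 2 705 and replicate 3 736. The same share was 71.4% for promoter and 65.9% for transcript peaks, whose ranks were higher, and the difference was not tested. Read against the whole relaxed lists, 786 members (96.4%) overlapped a peak in all 3, and those lists hold background. The weakest quintile gave 94.3% in the whole lists. The cut at 6253 peaks per replicate equals the length of the thresholded list, so lower support near that rank is partly built in. Between 40 and 44 members shared their replicate peak with another member.

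The strongest intergenic peak of the genome lay in the 36.8 kb between Su(z)2 and CG13323 on arm 2R, with its summit at 13035348. Su(z)2 encodes a Polycomb group protein related to Posterior sex combs. The peak ranked 8, 13 and 8 in replicates 1, 2 and 3 and 8 of 6253 in the thresholded list, with a signal of 2733.2. It was among the strongest peaks of any class in every replicate. The nearest annotated start site, that of CG13323, was 11908 bp away. The Su(z)2 end of the interval was farther, at 27.4 kb.

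Some of the 20 strongest peaks lay in an interval bordered by a Polycomb group gene, although by nearest protein-coding start only that at ph-d was assigned to one. These were picked out after their values were seen, no list was tested, and the share of such intervals among all peaks was not counted. One lay 775 bp upstream of ph-d, between ph-d and ph-p, the paired polyhomeotic genes, and ranked 373, 248 and 305 in the 3 replicates. Another lay in the 10.3 kb between CG13321 and Psc, which encodes Posterior sex combs, was nearest to the CG13321 start and ranked 299, 288 and 320. At tara, a gene known for genetic interactions with Polycomb and trithorax group genes, 2 members lay 3170 and 1129 bp upstream of the protein-coding start. The first ranked 22, 14 and 21 in the 3 replicates and the second 153, 227 and 211.

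The other members of the 20 strongest lay near genes of varied function. The summit 3356 bp downstream of the start of CycB, the mitotic cyclin B gene, ranked 86, 48 and 59. That near foxo, the forkhead factor of insulin signalling, lay 3320 bp upstream and ranked 202, 161 and 186. The summit 1246 bp upstream of stck, which encodes an integrin-associated LIM protein, ranked 141, 222 and 207. RasGAP1, an inhibitor of Ras signalling, had a summit 633 bp upstream that ranked 335, 251 and 297. The remaining ones were nearest to CG31668, CG3149, sp3, CG43131, CG10651, noc, CG43245, slp2 and, for 3 summits, chinmo. Ranks were close between replicates except for CG10651 (1110, 131 and 323) and CG43245 (166, 696 and 265).

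**Figure D3:**
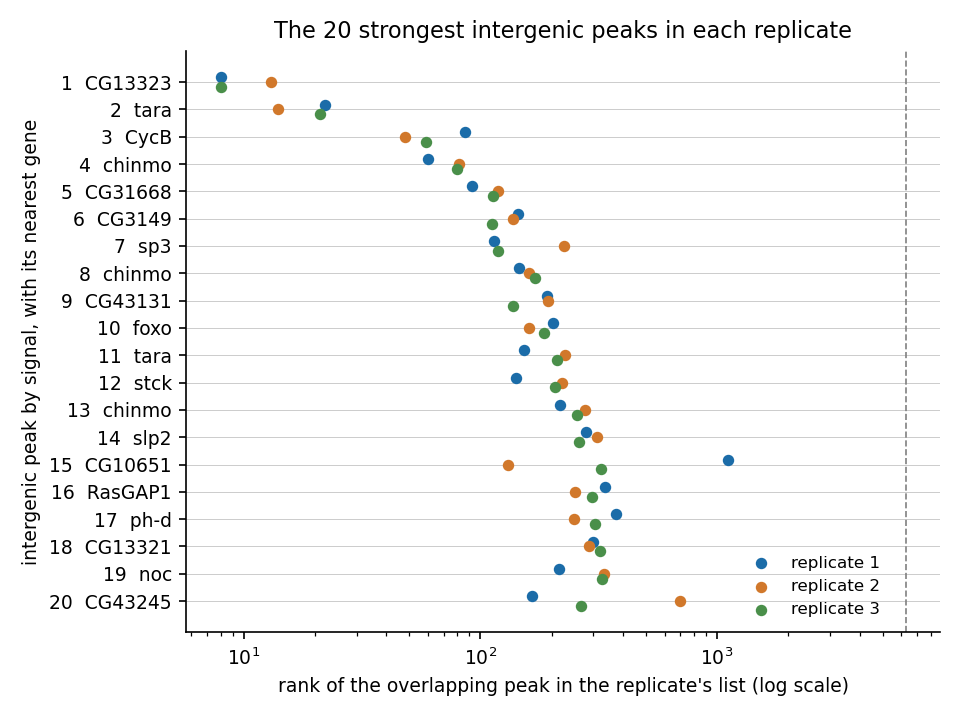
Rank of the overlapping peak in each replicate list (horizontal axis, log scale, 1 the strongest) for the 20 strongest intergenic peaks (vertical axis, ordered by signal and named by the nearest protein-coding start); the dashed line is rank 6253. All 60 points lie to its left, and CG10651 in replicate 1 is the farthest right at 1110.

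Intergenic summits were dense close to start sites. The distance to the nearest start of any transcript ran from 501 to 36644 bp, with a median of 2726 bp and quartiles of 1261 and 5425.5 bp. To the nearest protein-coding start the median was 4015 bp and the maximum 72225 bp. Per megabase of eligible sequence, the replicates held 54.5 ± 5.83 (SD, n = 3) summits at 0.5 to 1 kb, 38.4 ± 1.22 at 1 to 2 kb and 27.4 ± 3.42 at 2 to 5 kb. They held 18.4 ± 2.64 at 5 to 10 kb, 14.8 ± 1.5 at 10 to 20 kb and 1.89 ± 0.149 beyond 20 kb. The order was the same in each replicate, and the replicates of neighbouring distance classes did not overlap, the closest being 16.3 for the lowest at 5 to 10 kb and 16.2 for the highest at 10 to 20 kb. Beyond 10 kb lay 93 members (11.4%).

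**Figure D4:**
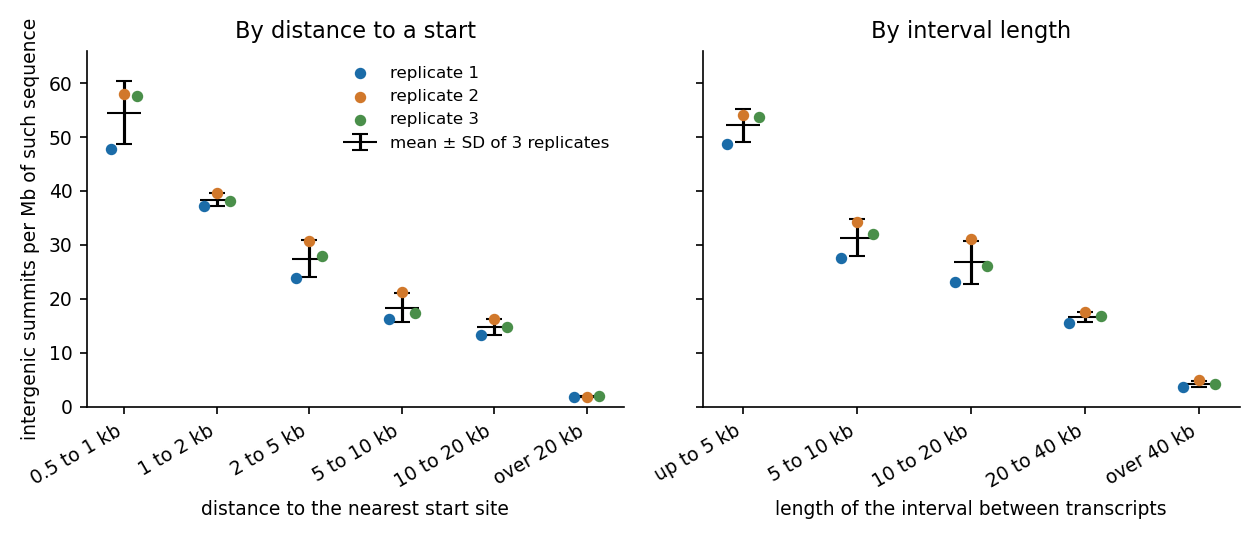
Intergenic summits per megabase of eligible sequence (vertical axis) by distance to the nearest start site (left, kb) and by length of the interval between transcripts (right, kb); coloured points are the 3 replicates and black bars the mean ± SD. Density falls from 54.5 to 1.89 per Mb with distance and from 52.2 to 4.24 per Mb with interval length.

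Short intervals were the more densely occupied. Those of up to 5 kb held 52.2 ± 3.06 summits per Mb, those of 5 to 10 kb 31.3 ± 3.44, those of 10 to 20 kb 26.8 ± 3.99, those of 20 to 40 kb 16.7 ± 0.991 and those over 40 kb 4.24 ± 0.618. Distance and interval length move together, and their parts were not told apart. Repeated sequence was not taken out of eligible sequence, and its share by distance, interval length or arm was not counted. Intervals between divergent genes held 28.7 ± 3.19 summits per Mb, tandem ones 22 ± 2.28 and convergent ones 19.6 ± 1.25. Within each replicate the divergent density was the highest and the convergent the lowest, at 25.5, 31.8 and 29.0 against 18.3, 20.7 and 19.8. Relative to the nearest protein-coding start, 530 members (65%) lay upstream, a side that makes up 59.0% of eligible sequence.

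The nearest annotated start belonged to a protein-coding gene for 552 members, to a non-coding RNA for 232, to a tRNA for 26, to a snoRNA for 3 and to a pseudogene for 2. Annotated transposable elements, which the rule left out of the transcripts, held 5 members (0.613%) and make up 10.9% of eligible sequence. How the authors treated reads from repeated sequence was not given in the sources used here.

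Arms differed in the intergenic share of their peaks. It was 17.5% on 3L (228 of 1303), 16.3% on 2L (190 of 1164), 11.4% on 2R (125 of 1100), 11.2% on 3R (167 of 1487) and 8.16% on X (96 of 1176). On X the replicates gave 6.55%, 8.46% and 8.31%, each below the value of every other arm in that replicate. On chromosome 4, 9 of 23 peaks were intergenic, an exact interval of 19.7% to 61.5%. Eligible sequence makes up 31.9% of 3L, 28.6% of 2L, 29.4% of 2R, 23.9% of 3R and 22.3% of X. Per Mb of it, 2R held 16.5 ± 1.56 (SD, n = 3) summits, X 17.2 ± 3.39, 3R 20.7 ± 1.64, 3L 25.9 ± 2.37, 2L 27.4 ± 2.29 and chromosome 4, with 7, 7 and 9 summits, 31.3 ± 4.71.

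Some members lay close together, though no closer to the next peak than summits of the other classes. The 815 lay in 566 of 6528 intervals with eligible sequence: 420 held 1 member, and 146 held 2 or more and 395 members between them. Another thresholded summit of any class lay within 2 kb of 271 members (33.3%), and another member within 5 kb of 306 (37.5%). The share within 2 kb was 36% for promoter and 38.9% for transcript summits. Median distances to the next summit were 4202 bp for intergenic, 3436.5 bp for promoter and 2916 bp for transcript summits. For 56 members the next summit was within 250 bp, so neighbouring members are not all separate binding regions.

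The interval with the most members lay between NijA and CG43245 on 3L, where 10 members spanned 71.6 of 75.05 kb. Their signals ran from 126.2 to 755.4, and 9 of the 10 were found in all 3 replicates. The strongest, 19159 bp upstream of the CG43245 start, ranked 166, 696 and 265. Of the 5 summits farthest from any start, 3 were here, at 36644, 35075 and 33000 bp. The others were 33880 bp from vvl, a POU transcription factor gene, and 33879 bp from lncRNA:CR46353, with the cell death activator rpr as the nearest protein-coding gene.

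The next intervals were on 3L and 2L. Between tRNA:Ile-TAT-1-2 and CG13898, 9 members spanned 31.3 of 33.0 kb, with signals of 128.8 to 643.6. Between lncRNA:CR44363 and CG7560, 8 members lay within 13.5 kb, and 7 were found in all 3 replicates. Upstream of chinmo, which encodes a BTB zinc finger protein of neuronal temporal identity, the 20.9 kb between lncRNA:CR44603 and lncRNA:CR45695 held 7, of which 4 were nearest to chinmo and 3 to RFeSP. The 3 strongest, all nearest to chinmo, had signals of 1391.8, 1018.9 and 837.0 and ranked 60, 81 and 80, then 146, 160 and 170, then 218, 278 and 256. The interval of Su(z)2 held 5, of which the other 4 had signals of 136.0 to 178.7 beside the 2733.2 of the strongest.

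**Figure D5:**
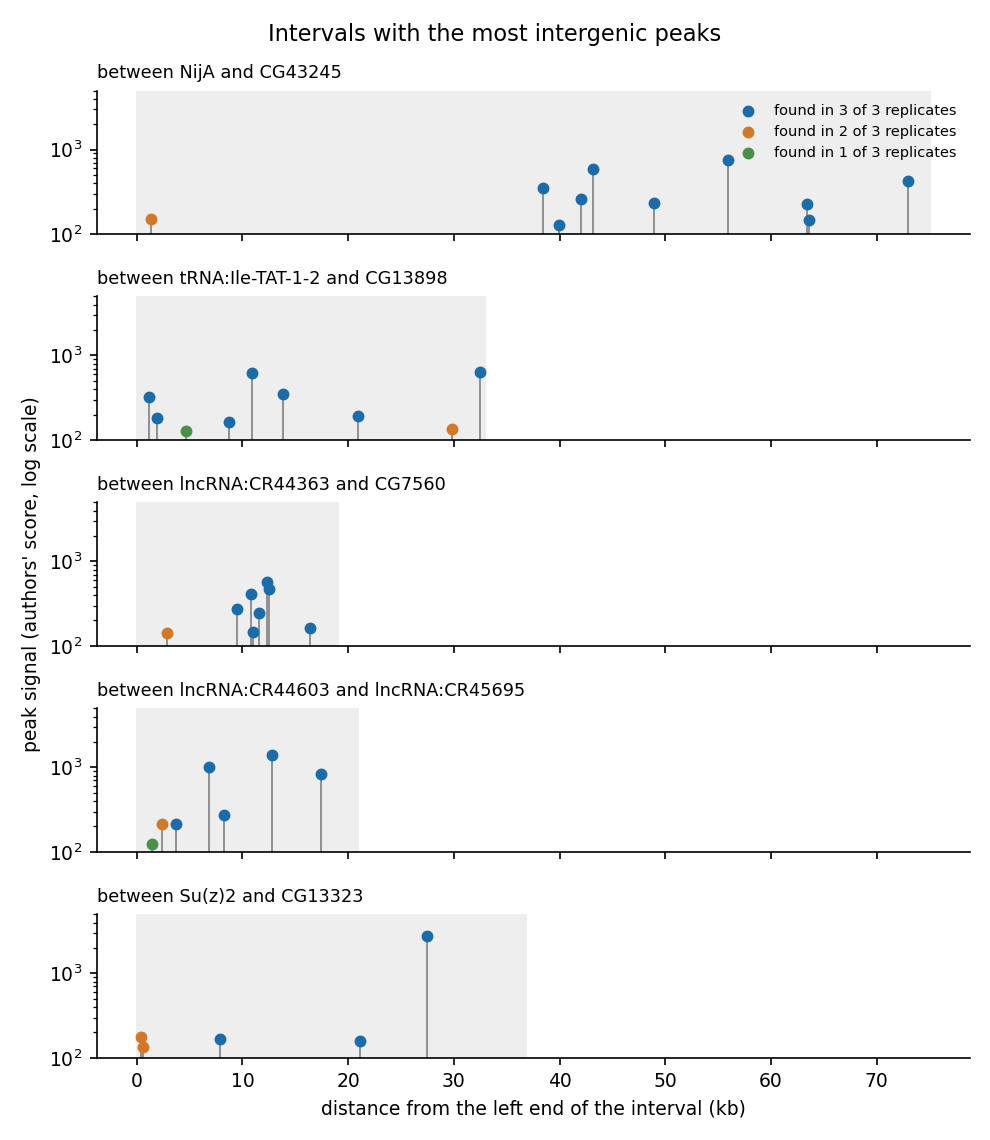
Signal of each intergenic peak (vertical axis, authors' score, log scale) against its distance from the left end of the interval between transcripts (horizontal axis, kb) for the 5 intervals with the most members; grey marks the interval and colour the number of replicates with an overlapping peak among the first 6253. The interval beside NijA holds 10 points and that upstream of chinmo has the 3 points between 837.0 and 1391.8.

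Nearest protein-coding start sites assigned the 815 members to 558 of 13945 genes (4.00%). Of these, 418 had 1 member and 54 had 3 or more, with 225 members. The most were 12 at CG43245, 9 at hng3, 8 at CG13898, 8 at CG7560 and 7 at chinmo. Among members found in both other replicates, hng3 and CG13898 had 5 each when replicate 2 or replicate 3 was left out. Within 10 kb of the start the counts were 2 for CG43245, 3 for hng3, 4 for CG13898 and 4 for chinmo, so most of the summits assigned to CG43245 and hng3 lay farther away.

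Some genes of neural temporal and spatial identity had members. Of 16 such genes, 8 had at least 1 member, beside 4.00% of all genes, and they held 19 members, 14 of them found in all 3 replicates. Per Mb of eligible sequence nearest to them this was 95.9, beside 22.4 for all genes. Of the 7 members nearest to the chinmo start, 4 lay in the 20.9 kb interval described above, the weakest of these with a signal of 274.3. The other 3 lay between lncRNA:CR45695 and chinmo, 1530 to 2494 bp from the start, with signals of 519.0, 229.5 and 171.2. The forkhead gene slp2 had 2, the stronger one 4306 bp upstream, at ranks 279, 310 and 260. The POU factor gene vvl had 4, the strongest 26266 bp from its start, at ranks 1276, 1064 and 1853. The homeodomain genes hth, Dr, ey and Optix and the forkhead gene slp1 had 1 or 2 each, with best signals of 157.1 to 218.1. The other genes of the list, hb, Kr, nub, pdm2, cas, svp, vnd and ind, had none. Of these, Kr, svp and ind had no eligible sequence nearest to them. Eligible sequence was 15.95 kb for nub, 8.15 kb for hb, 6.38 kb for cas, 4.90 kb for pdm2 and 2.58 kb for vnd. The list was chosen with earlier results of these data known, so the count is a description.

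Segmentation genes also had members. Of 10 pair-rule genes 6 (60.0%) had one, at 57.5 members per Mb: slp2, odd, slp1, opa, hry and ftz, the sloppy paired genes being shared with the preceding list. The best at odd, a zinc finger gene, lay 8061 bp from its start with a signal of 207.4 and ranked 3959, 2638 and 3801. Of 14 segment polarity genes 5 (35.7%) had a member, at 39.9 per Mb. The T-box gene mid had one at ranks 1283, 1083 and 1096, and ptc, which encodes the Hedgehog receptor Patched, one at 800, 1254 and 1231. The ligand genes Wnt4 and wg had 1 and 2, and H15 had 3. Of 11 gap and head gap genes 2 (18.2%) had members, at 37.0 per Mb. These were ems with 4 and oc with 2, the best at ems ranking 1588, 1656 and 1320. The rest, kni with 35.3 kb of eligible sequence among them, had none. Of 8 Hox genes Dfd alone had one (12.5%), 26925 bp from its start, at 14.9 members per Mb. All genes together gave 4.00% and 22.4 members per Mb.

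Homeobox and neural T-box regulators had members at 6 of 25 genes at 40.7 members per Mb. Doc2, a T-box gene of the dorsal ectoderm and heart, had 3, the best at ranks 1026, 1265 and 1032. The gene tup, which encodes the LIM homeodomain protein Islet, had 2, the better at 2236, 1766 and 1610. B-H2 and Doc1 had 1 each, and ems and ey recur from other lists. The regulatory lists share genes, so their counts are not independent.

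The family of Deadpan itself had 5 members, none among the 20 strongest. The 13 genes listed for this family were matched by symbol. They took in her, on arm 2L, whose place in the family was not checked. Of the 13, hry had 2 intergenic peaks. Sidpn, E(spl)m3-HLH and E(spl)mgamma-HLH had 1 each, so that 4 of the 13 (30.8%) had one, beside 4.00% of all genes. This was 104.1 members per Mb, from 5 members in 48.0 kb, and 0 of these 5 were found in all 3 replicates. The best at hry, 20654 bp from its start, ranked 1151, 10706 and 4635, a wide spread. That at Sidpn ranked 27428, 2884 and 5307. No intergenic summit was nearest to the start of dpn. Of 19 Notch pathway genes only fng, a glycosyltransferase gene that modifies Notch, had one, at ranks 3767, 2688 and 2191, which at 5.26% of the list is near the 4.00% of all genes.

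Lists of neuroblasts, their progeny and basic functions held 0 to 4 members each. Of 20 neuroblast identity and division genes 3 (15%) had members, the SoxB genes D and SoxN and the zinc finger gene klu, with best signals of 123.7 to 143.3 and 26.0 members per Mb. Proneural genes and partners had none of 11, neuronal differentiation genes none of 14, and glial genes 1 of 9 (11.1%), at pnt, which encodes an ETS factor, or 91.9 per Mb from 1 member in 10.9 kb. Eligible sequence nearest to the proneural list was 16.6 kb in all and to the neuronal list 33.3 kb, which at the 22.4 members per Mb of all genes comes to 0.371 and 0.745 members. Of 23 cell cycle genes CycB and Cdk4 (8.70%) had one each, or 182.9 per Mb from 2 members in 10.9 kb. Of 85 ribosomal protein genes RpS23 and RpS15Aa had one each (2.35%), at 6.0 per Mb. That density depends on a few genes without a member. Of the 333.3 kb nearest to this list, RpL5 had 86.8 kb, RpL15 69.7 kb, RpL10 46.6 kb and RpL38 35.2 kb. The value is therefore no measure of a typical gene of the list.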

How the data were processed

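Peak lists of 3 biological replicates of 1 group, a relaxed list for the replicates pooled and a thresholded list were used, all on dm6. Lists on dm3 were not used. Per the labels, chromatin was sonicated to fragments of 200 to 800 bp. Signal is the authors' deposited value per peak on a scale that is not stated, and it was used to rank peaks within a list. The deposited −log10 q-value was the same for all 6253 thresholded peaks and could not grade them. Those 6253 were the first 6253 of the pooled list of 30000 by signal. The summit offset was taken as deposited by the authors. Read depth, aligner, peak caller and IDR limit are not given in the sources used here, so intervals cover the counting of peaks only.

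Summits were set against Ensembl release 115 gene models (BDGP6.54, 6 arms, 13945 protein-coding genes, transposable elements left out), and sequence was read from the RefSeq Release 6 genome, which is dm6. Coordinates are 1-based. Replicate lists were read down to 6253 peaks, and support meant an overlap of at least 1 bp. Eligible sequence was every base outside transcripts and over 500 bp from a start. Windows were 50 bp on either side of the summit, with flanks centred 500 bp away, on alternating sides from one peak to its neighbour in the word tests and on both sides for GC content. Words were compared by a two-sided exact McNemar test with Benjamini-Hochberg adjustment, over 2080 six-base words or 19 chosen words, and across peaks, which are not replicates of a condition. Sample values were tested by a two-sided exact sign-flip over 3 replicates. On simulated windows for the six-base word test (2080 words, 815 windows), 0 words without an effect were called, and 95% of words planted in 10% of windows and 55% of those planted in 4% were found. Both sides of that simulation were flank windows, without the GC difference between summits and flanks. It therefore does not cover calls that follow base composition.

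The members, the 14 gene lists and the words were chosen with earlier results of these data known. Named were the 20 strongest members, the 5 farthest from a start, up to 3 members per gene list with the highest signal, the 5 genes and 5 intervals with most members, all 19 words and 6 six-base words in each direction. Members of short lists beyond these, the six-base words with 3 or more G or C bases, the word GCGCCNNCT and the Polycomb group neighbours were named after their values were seen. Alternatives changed the start distance, the point tested, the gene models, overlap, list depth, windows and flanks, and left out each replicate. Python 3.11.15 with numpy 2.4.6, pandas 2.3.3, scipy 1.17.1 and matplotlib 3.10.9 was used.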

Additional observations from a re-analysis of the deposited data

How the results depend on the processing

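The count of 815 intergenic summits stayed within 1.5 times under every change of start distance, tested point and gene models, was 333 among the 3127 stronger peaks, and among members found in both remaining replicates ran from 525 to 642. The share found in all replicates, 61.1%, was 43.6% with an overlap of at least 50% of both peaks, 91.7% at 12506 peaks per replicate, 96.4% against the whole lists and 64.4% to 78.8% with 1 replicate left out. The GC difference kept its sign in all 7 alternatives. The 499 words called were 767 with windows of 100 bp (465 of them lower), 66 among those stronger peaks (32 higher, 34 lower) and 248 to 419 with 1 replicate left out (122 to 173 higher, 126 to 246 lower); fewer summits are tested in these last settings. No word called in either setting turned to the other direction. The 2 fixed words called became 0 with windows of 100 bp, 0 among the stronger peaks, 0 with flanks swapped, 1 with flanks at 1000 bp and 0 to 1 with 1 replicate left out. The median distance of 2726 bp was 4015 bp to protein-coding starts. GC relative to promoter summits was -0.314 points at 3126 peaks per replicate, and relative to transcript summits 1.23 at 3126 and -0.684, reversed, at 12506. The rank differences of 787 and 239 were 340.5 and 107 at 3126 and 2052.5 and 95.8 at 12506, where ranks span other ranges. The TATCGATA difference from promoters was -2.93 points at 3126 peaks. The cause was not tested in any of these. The share with GCGCCNNCT, alternatives chosen after seeing the data, was 2.58% within 25 bp, 6.38% within 100 bp and 3.24% without replicate 3. No paired analysis was possible because there is 1 group. Read depth was not given, so weak peaks cannot be graded.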
